A study of Mus musculus with 4 samples.

Results

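The genes described here are 33 genes of dietary lipid absorption and fatty acid oxidation, chosen by name and read in every cell class of the mouse small-intestinal crypt. They cover the assembly and export of chylomicrons, the resynthesis of triglyceride, fatty acid uptake and activation, sterol transport, the lipid droplet coat, the carnitine shuttle and mitochondrial beta oxidation, with the regulators Creb3l3 and Ppara. All 33 were found by symbol among the 32285 genes of the deposited count tables. Crypts had been released from small intestine in 10 mM EDTA and strained at 70 µm, and their cells were profiled by droplet-based single-cell sequencing of transcript 3′ ends. Group 0D held libraries 0D-1 and 0D-2, and group 2D held 2D-1 and 2D-2, 4 libraries in all. The titles carry the prefix SD, and the series compares mice before and after sleep deprivation. 0D is read here as before and 2D as after, since the letter D is not spelled out. The sources used here do not give genotype, strain, age or sex, or say whether each library is a separate mouse. A p-value here therefore reflects the scatter of these libraries only, which may be technical. A crypt fraction is a limited sample of absorptive cells, because mature absorptive cells sit mainly on the villus.

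After filtering, 7025 to 7988 cells per library remained, with 93090534 to 113758758 unique molecular identifiers (UMIs, each a counted transcript) and 13 to 16 cell barcodes shared between any pair of libraries. Each cell was put in a class by marker panels that hold none of the 33 genes. This gave 2228 enterocytes (733 and 643 in the 0D libraries, 560 in 2D-1 and 292 in 2D-2), 4990 dividing, 2586 stem, 9102 goblet, 3799 Paneth, 1180 tuft and 2548 enteroendocrine cells. 13 of the 19 enterocyte markers had their highest level in the enterocyte class. The other 6 (Slc15a1, Slc2a5, Dpp4, Slc6a19, Xpnpep2 and Krt20) were higher in enteroendocrine cells. The gate is a range of a score rather than a natural border: 242 enterocytes lay within 0.1 above its limit and 236 cells within 0.1 below it. Enterocytes made up 9.67%, 9.03%, 7.98% and 3.66% of the epithelial cells, a mean of 9.35% ± 0.455 in 0D and 5.82% ± 3.06 in 2D (SD, n = 2 each; exact permutation test, two-sided, p = 0.333, the smallest that this design allows).

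Libraries also differed in ways that touch the results on the enterocytes. Library 2D-1 stood apart in 10 interferon-response genes, which summed to 2287 CPM (UMIs of a gene per 1000000 UMIs of the class in a library) in its enterocytes against 361 to 398 in the other libraries. RNA of Paneth cells, the defensin-secreting cells of the crypt base, was higher in the enterocytes of 2D. The 11 Paneth markers summed to 1623 and 1820 CPM in 0D and to 3726 and 4501 CPM in 2D, and 10 of the 11 were higher in both 2D libraries than in both 0D libraries, with none at 0. Markers of the ileum, the last stretch of the small intestine, summed to 640, 1291, 2000 and 1080 CPM.

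Dietary fat reaches the enterocyte as fatty acids and monoacylglycerol, which are bound by cytosolic fatty acid binding proteins, activated to acyl-CoA and rebuilt into triglyceride. Triglyceride is loaded onto apolipoprotein B by the microsomal transfer protein and leaves the cell as chylomicrons, while excess is stored in lipid droplets. Fatty acids can instead enter mitochondria through the carnitine shuttle and be shortened by beta oxidation, which supplies energy in crypt stem cells as well as in absorptive cells. PPAR alpha and CREB3L3 (CREB-H) are transcription factors of these programmes, and CREB3L3 is known to act on apolipoprotein genes.

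Several members are neighbours in the genome (mm10). Apoa1, Apoc3 and Apoa4 lie within 14880 bases (chr9:46228580-46243459), with Apoc3 on the minus strand between the other two. Dgat2 and Mogat2 lie on the minus strand within 84962 bases (chr7:99153658-99238619), and Hadha and Hadhb, the subunits of the trifunctional protein, point away from each other at chr5:30118304-30184593. Abcg5 and Abcg8, partner subunits of a sterol exporter, lie on opposite strands of chromosome 17. The GENCODE annotation starts Abcg8 at base 84676302, inside Abcg5 (chr17:84658234-84683011), whereas RefSeq gives Abcg8 a pair of starts, one of which faces that of Abcg5 across 109 bases. Overlapping annotations concern Acsl3 (Utp14b on the same strand) and, on the other strand, 8 more members besides the pair Abcg5 and Abcg8 (Apoa4, Mttp, Mogat2, Fabp2, Acsl5, Acadvl, Hadha and Etfdh). No source used here says how reads in such overlaps were assigned.

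Stretches before transcription starts are shown for Fabp1, Apoc2 and the pair Abcg5 and Abcg8. Each printed stretch holds a match to a motif described here. Other members are not printed, among them Apob with a TATAAA match and Apoa4 and Creb3l3 with none. RefSeq promoters (GRCm38.p6, 300 bases each) were matched for 28 of the 33 members, and only bases before the RefSeq start are printed, 5′ to 3′. GENCODE starts Fabp1 at base 71199827, inside its printed stretch. Capitals mark matches to a direct repeat of nuclear receptors (AGGNCANAGGNCA, as bound by HNF4 and PPAR with RXR) or to TATAAA, on either strand.
Fabp1, chr6:71199629-71199878, plus strand: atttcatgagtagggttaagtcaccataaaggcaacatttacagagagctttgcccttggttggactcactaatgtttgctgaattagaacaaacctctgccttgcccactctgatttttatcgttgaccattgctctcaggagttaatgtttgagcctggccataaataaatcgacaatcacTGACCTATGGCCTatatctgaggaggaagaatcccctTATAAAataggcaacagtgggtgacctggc
Apoc2, chr7:19677942-19678191, minus strand: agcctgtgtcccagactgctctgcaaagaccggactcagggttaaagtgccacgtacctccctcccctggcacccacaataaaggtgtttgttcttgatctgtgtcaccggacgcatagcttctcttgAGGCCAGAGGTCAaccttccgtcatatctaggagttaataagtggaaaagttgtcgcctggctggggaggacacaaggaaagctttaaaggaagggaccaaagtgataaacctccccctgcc
Between the start of Abcg5 and the facing RefSeq start of Abcg8, chr17:84683012-84683120, plus strand: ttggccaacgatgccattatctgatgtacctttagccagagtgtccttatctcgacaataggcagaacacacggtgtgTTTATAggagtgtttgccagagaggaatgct
The repeat was found in 2 of the 28 members, Fabp1 (on the minus strand, its first printed base 67 bases before the start) and Apoc2 (122 bases before the start). It was found in 0.381% of all 32851 promoters in the table. TATAAA was found in 4 members (Abcg5, Abcg8, Apob and Fabp1) and in 13.6% of all promoters. The single match between Abcg5 and Abcg8 reads TATAAA on the strand of Abcg5 and begins 31 bases before that start of Abcg8. The HNF4 motif CAAAGTCCA was in 0 of the 28 members and 0.475% of all promoters. A match describes these letters and is no measured binding site.

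Enterocytes carried more of nearly the whole set than dividing cells did, and the gap was widest for the secreted apolipoproteins Apoa1 and Apoa4, followed by Creb3l3 and Fabp1. 32 of the 33 members were higher in enterocytes and 1, Acsl3, was lower, where 37.2% of the 11755 genes tested were higher and 38% lower (edgeR's quasi-likelihood test on UMIs summed per library and class, library as a block, Benjamini-Hochberg adjusted p under 0.05). The median log2 difference was 1.45 over the members and -0.010 over all genes tested. By role, the median fell from 3.52 for chylomicron genes through 2.85 for the regulators, 2.42 for triglyceride resynthesis, 2.21 for sterol transport and 2.01 for fatty acid uptake to 1.24 for the droplet coat, 0.98 for the carnitine shuttle and 0.92 for beta oxidation. Scaled to total UMIs alone, the median over the members was 1.26, and 32 members passed.

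**Figure D1:**
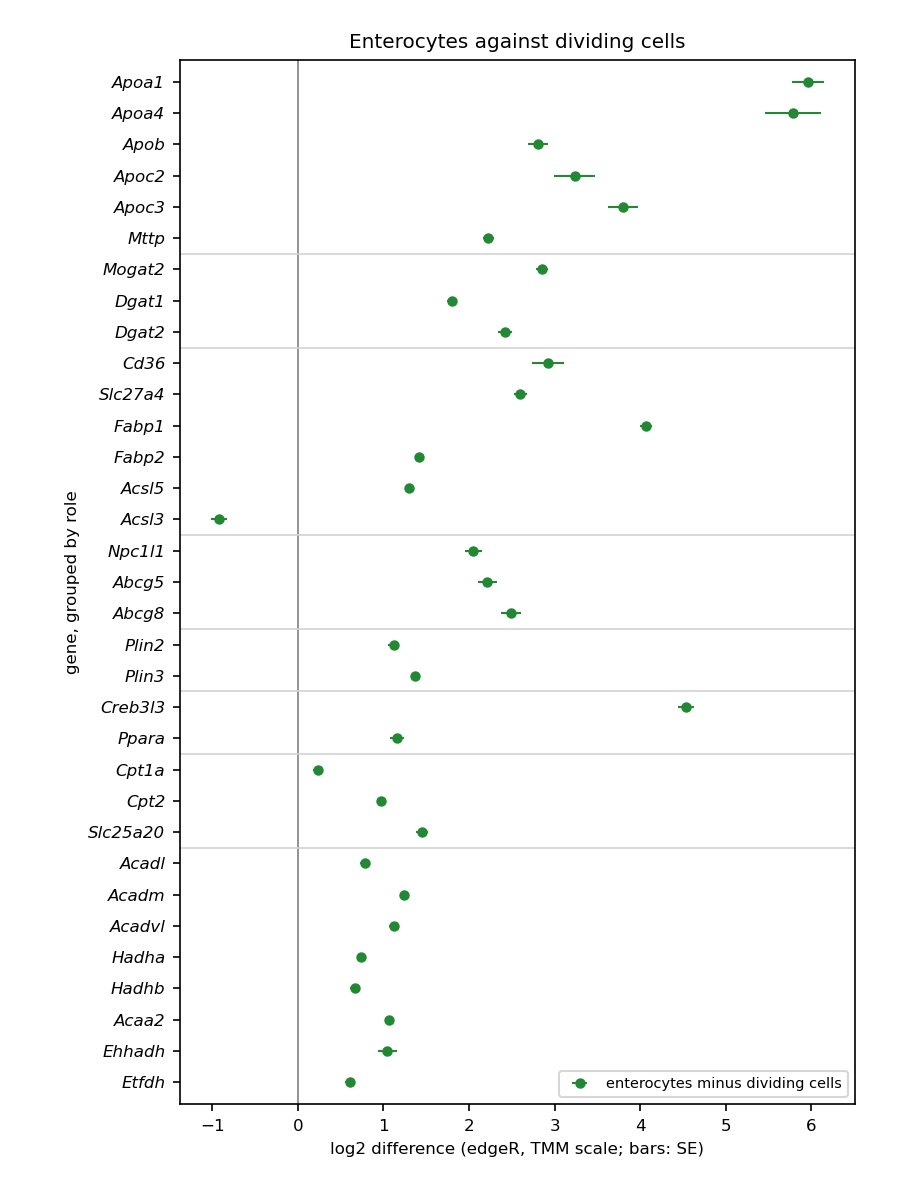
Log2 difference between enterocytes and dividing cells (x axis, with standard error bars, 4 libraries) for each member (y axis, grouped by role). Apoa1 and Apoa4 lie farthest to the right, at 5.96 and 5.79, and Acsl3 alone lies left of 0.

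In what follows, lists of values give both 0D libraries first and then both 2D libraries, each by number, and are levels in CPM, and differences are log2 ± SE from the fit. Apoa1 and Apoa4, of the chromosome 9 cluster, showed the widest gaps. Apoa1, the main protein of high density lipoprotein, was at 643, 688, 612 and 1269.5 CPM in enterocytes and 14.5, 14.4, 14.2 and 11.2 CPM in dividing cells (difference 5.96 ± 0.19). Apoa4, a fat-responsive protein of nascent chylomicrons, was at 147, 133, 225 and 758 CPM in enterocytes and 5.70, 4.91, 4.28 and 3.65 CPM in dividing cells (5.79 ± 0.33). In both genes every enterocyte value lay far above every dividing value. Apoc3, an inhibitor of lipoprotein lipase, was at 89.9, 104, 94.1 and 205 CPM against 9.72, 9.72, 8.99 and 7.86 CPM (3.80 ± 0.17). Apoc2, the activator of lipoprotein lipase, which is encoded on chromosome 7, was at 42.0, 48.2, 86.3 and 260.4 CPM against 8.27, 8.93, 10.3 and 13.6 CPM (3.23 ± 0.24). The assembly genes were higher by less. Apob, the structural protein of the chylomicron, was at 292, 279, 253 and 325 CPM against 52.5, 45.0, 52.7 and 36.2 CPM (2.81 ± 0.11). Mttp, the transfer protein that lipidates it, was at 395, 406, 379.6 and 337 CPM against 92.2, 99.7, 109 and 72.7 CPM (2.22 ± 0.063). Adjusted p over these 6 genes ran from 2.70e-10 to 3.44e-07 in edgeR.

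Triglyceride resynthesis genes followed. Mogat2, the monoacylglycerol acyltransferase of the gut, was at 124, 130.0, 104 and 106 CPM in enterocytes and 19.7, 18.8, 19.7 and 15.1 CPM in dividing cells (2.85 ± 0.070). Dgat1, which adds the last acyl chain, was at 323, 308, 317 and 305 CPM against 107, 98.6, 119 and 88.3 CPM (1.80 ± 0.058). Its counterpart Dgat2 was at 28.7, 28.5, 24.3 and 32.7 CPM against 6.37, 6.51, 5.31 and 5.55 CPM (2.42 ± 0.083). All 3 genes were separated between the classes in every library. The lipid droplet coat proteins differed by less: Plin2 was at 101, 88.7, 70.3 and 70.9 CPM against 48.1, 43.4, 41.7 and 40.8 CPM (1.12 ± 0.063). Plin3 was at 177, 189, 195 and 179 CPM against 76.9, 83.5, 91.2 and 77.3 CPM (1.37 ± 0.043).

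Fatty acid uptake and binding genes were mixed. Fabp1, the liver-type binding protein, was at 3292, 2921, 1789 and 1975 CPM in enterocytes and 236, 164, 134 and 142 CPM in dividing cells (4.07 ± 0.069). Fabp2, the intestinal type, was at 1706, 1571, 1243 and 2089 CPM against 725, 716, 581 and 785 CPM (1.42 ± 0.052). So Fabp2 was still high in dividing cells, where Fabp1 had dropped to a small part of its enterocyte level. Cd36, a fatty acid translocase known mainly from the proximal villus, was scarce, at 5.92, 4.85, 2.77 and 5.11 CPM against 0.901, 0.554, 0.496 and 0.913 CPM (2.92 ± 0.19). Slc27a4, the fatty acid transport protein FATP4, was at 67.2, 64.3, 62.8 and 69.5 CPM against 13.7, 11.5, 13.1 and 10.9 CPM (2.60 ± 0.074). The acyl-CoA synthetases went opposite ways. Acsl5 was at 196, 211, 206 and 181 CPM in enterocytes and 89.9, 96.2, 102 and 81.9 CPM in dividing cells (1.30 ± 0.043). Acsl3 was at 11.8, 13.5, 17.0 and 16.9 CPM against 29.3, 33.8, 33.1 and 28.4 CPM (-0.92 ± 0.094, adjusted p = 4.65e-06 in edgeR), lower in enterocytes in all 4 libraries.

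The 3 sterol transporters were higher in enterocytes by similar amounts. Npc1l1, the apical cholesterol importer, was at 89.8, 100.3, 97.1 and 103 CPM in enterocytes and 25.9, 26.1, 34.3 and 20.7 CPM in dividing cells (2.05 ± 0.10). Abcg5 was at 44.7, 45.4, 39.1 and 41.5 CPM against 9.88, 9.52, 13.5 and 9.20 CPM (2.21 ± 0.11), and its partner Abcg8, one of whose RefSeq starts borders the 109 bases printed above, differed by 2.49 ± 0.12 (31.6, 37.6, 38.6 and 33.5 CPM against 6.69, 5.61, 10.4 and 6.18 CPM). The regulators also differed: Creb3l3 was at 149.5, 117, 73.4 and 90.4 CPM in enterocytes and 9.14, 4.84, 3.68 and 3.51 CPM in dividing cells (4.54 ± 0.094). Ppara was at 39.0, 31.2, 30.8 and 30.9 CPM against 18.1, 15.3, 18.7 and 15.4 CPM (1.16 ± 0.078). Creb3l3 was thus among the members with the widest gap, and Ppara was not.

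Oxidation genes were carried by both classes, with a smaller excess in enterocytes. Cpt1a, which makes acylcarnitine at the outer membrane, was at 88.5, 85.7, 73.2 and 56.9 CPM in enterocytes and 87.9, 81.0, 77.7 and 50.2 CPM in dividing cells (0.23 ± 0.052, adjusted p = 0.00190 in edgeR). Its CPM ranges overlapped, and scaled to total UMIs alone it was the member that did not pass. Cpt2, which reverses that step inside, was at 105, 98.4, 93.0 and 74.9 CPM against 59.3, 53.3, 59.1 and 44.6 CPM (0.98 ± 0.052). The carrier Slc25a20 was at 39.5, 37.7, 31.0 and 27.8 CPM against 17.2, 14.8, 14.3 and 10.2 CPM (1.45 ± 0.072). The acyl-CoA dehydrogenases begin each round of beta oxidation for chains of different length. Acadvl (very long) was at 159, 143, 117 and 123 CPM against 82.7, 69.1, 68.4 and 64.1 CPM (1.12 ± 0.052). Acadm (medium) was at 191, 186, 158 and 181 CPM against 98.8, 84.7, 81.8 and 81.1 CPM (1.24 ± 0.050). Acadl (long) was at 159, 154, 357 and 153 CPM against 108, 99.0, 213 and 119 CPM (0.78 ± 0.057), with 2D-1 high in both classes. The next steps differed by similar amounts. Hadha was at 331, 308, 268 and 283 CPM against 225, 200.4, 203 and 187 CPM (0.74 ± 0.047). Hadhb, the other subunit, was at 143, 138, 113 and 130.4 CPM against 104, 94.5, 91.5 and 87.8 CPM (0.66 ± 0.052). Acaa2, the thiolase, was at 315, 244, 155 and 239 CPM against 165, 129, 94.6 and 129.7 CPM (1.06 ± 0.048). Outside the mitochondrial spiral, Ehhadh, the peroxisomal bifunctional enzyme, was at 13.7, 15.9, 13.4 and 14.9 CPM against 8.11, 9.62, 7.68 and 5.48 CPM (1.05 ± 0.11). Etfdh, which passes the electrons on to the respiratory chain, was at 53.8, 45.2, 40.3 and 41.1 CPM against 36.9, 34.5, 32.8 and 30.5 CPM (0.61 ± 0.060).

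Over all 7 epithelial classes, 30 of the 33 members had their highest mean level in enterocytes. The exceptions were Apoc2 (Paneth cells), Acsl3 (stem cells) and Slc25a20 (tuft cells). Apoc2 was at 221, 251, 299 and 233 CPM in Paneth cells and 42.0, 48.2, 86.3 and 260.4 CPM in enterocytes, so Paneth cells were higher in 3 of the 4 libraries. Its level in goblet cells was 44.0 to 49.8 CPM and in dividing cells 8.27 to 13.6 CPM. Acsl3 was at 43.8, 44.8, 50.3 and 46.0 CPM in stem cells, above every other class in the mean, with enteroendocrine cells next at 27.2 to 38.1 CPM. Slc25a20 was at 28.1, 53.9, 46.0 and 35.3 CPM in tuft cells, a range that overlapped that of enterocytes. Fabp2 stood out among the other 30 for its level in goblet cells, 1517, 1489, 882 and 1239 CPM, which overlapped the enterocyte range, while Fabp1 in goblet cells was at 15.4 to 31.1 CPM. Fabp1 was next highest in tuft cells, at 260.4 to 299.9 CPM. The enterocyte range also overlapped that of the next class for Cd36, Cpt1a, Cpt2, Acadl and Acaa2. For Cpt1a the means were 76.1 CPM in enterocytes and 74.2 CPM in dividing cells. Creb3l3 was at 0.178 to 2.77 CPM in stem cells and 0.893 to 2.43 CPM in Paneth cells. The part that RNA freed from broken cells has in these low levels was not tested.

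**Figure D2:**
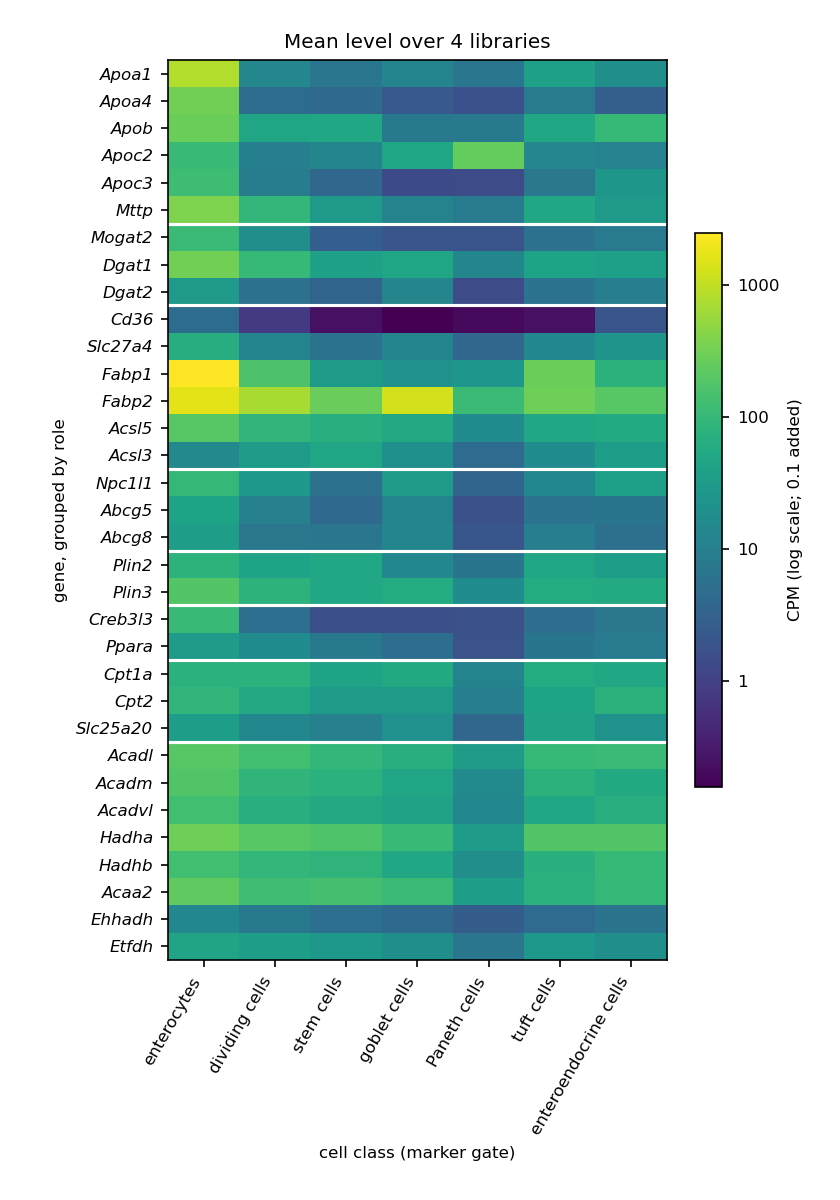
Mean level over the 4 libraries (colour, CPM on a log scale with 0.1 added) of each member (rows, grouped by role) in each cell class (columns). The enterocyte column is brightest for 30 of the 33 rows; the Apoc2 row is brightest in Paneth cells and the Fabp2 row is bright in goblet cells too.

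The comparisons of enterocytes with the other classes were added after the data were seen. In each of them most genes differed, and the members' share has to be read beside that. Against stem cells all 33 members passed (32 higher, Acsl3 lower), where 81.1% of all genes did. Against enteroendocrine cells all 33 passed (32 higher, Acsl3 lower; 81.2% of all genes), and against goblet cells 31 (30 higher, Acsl3 lower; 70.3%). Apoc2 and Fabp2 did not pass against goblet cells, with differences of 0.70 ± 0.34 and 0.28 ± 0.14. Both passed when scaled to total UMIs alone (0.80 and 0.37) and without 0D-2, and Apoc2 ran from 0.17 to 1.03 over the omissions of 1 library. Against tuft cells 30 members passed, all higher (69.9% of all genes). Against Paneth cells 31 were higher and Apoc2 lower, by -3.32 ± 0.36 (adjusted p = 4.51e-06 in edgeR; 72.8% of all genes). That last scale needs care, because the 11 Paneth markers took 51.0% to 55.6% of all UMIs of Paneth cells. Scaled to total UMIs alone, the Apoc2 difference was -1.63, the median over the members moved from 2.14 to 3.84, and Acsl3 moved from 0.0022 to 1.69.

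Between 2D and 0D, no member passed in any class. In enterocytes 0 of the 33 did (edgeR, adjusted p), where 0.123% of 11357 genes were called, while DESeq2 called 2 members, Fabp1 and Creb3l3, both lower in 2D, and 0.775% of all genes. At an unadjusted p under 0.05 there were 14 members, or 42.4%, beside 14.1% of all genes. The members split by role. Of the 6 chylomicron genes 5 had values above 0 (median 0.55), and of the 11 genes of the shuttle and beta oxidation 10 had values below 0 (median -0.28), beside a median of -0.17 over all members and 0.0033 over all genes. The 2 groups did not overlap for 19 members, of which both 2D libraries were lower for 16 and higher for 3. Over all genes tested these shares were 45.9%, 21.6% and 24.2%, against 57.6%, 48.5% and 9.09% of the members.

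**Figure D3:**
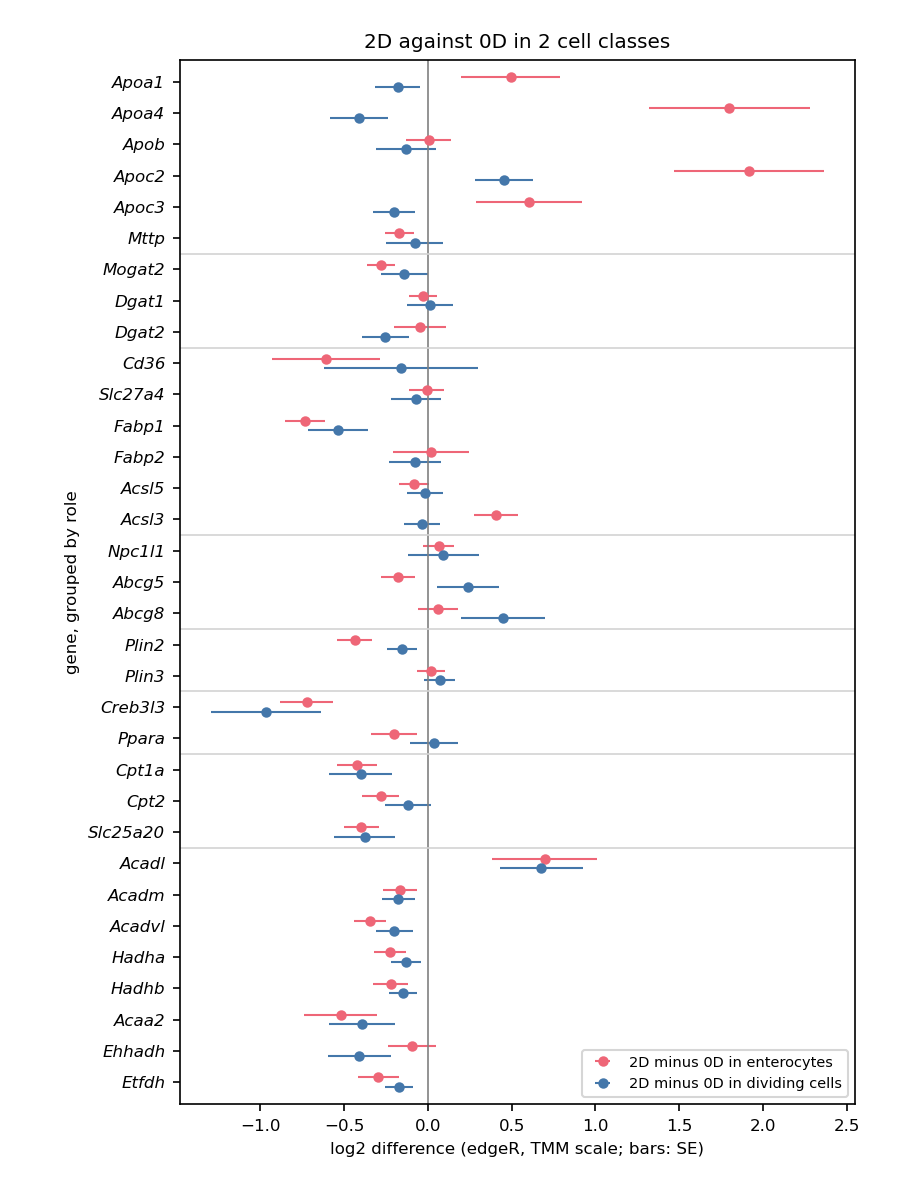
Log2 difference 2D minus 0D (x axis, with standard error bars, 2 libraries per group) of each member (y axis, grouped by role) in enterocytes and in dividing cells. Apoa4 and Apoc2 lie farthest right in enterocytes, at 1.80 and 1.92, and most oxidation genes lie left of 0 in both classes.

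Of the 11 members with values above 0 in the 2D enterocytes, 5 were chylomicron genes, and Apoc2 and Apoa4 had the largest differences. Apoa4 was at 147, 133, 225 and 758 CPM, higher in both 2D libraries and most of all in 2D-2 (1.80 ± 0.48, adjusted p = 0.218 in edgeR). Apoc2, at 42.0, 48.2, 86.3 and 260.4 CPM, had the same order (1.92 ± 0.45, adjusted p = 0.188). For Apoa1 (0.49 ± 0.30) and Apoc3 (0.60 ± 0.32) only 2D-2 was high, while 2D-1 lay below both 0D libraries for Apoa1 and between them for Apoc3. Without 2D-2 their differences turned to -0.15 and -0.074. Acsl3 had both 2D libraries higher, 11.8, 13.5, 17.0 and 16.9 CPM (0.41 ± 0.13). Acadl was far higher in 2D-1, the library with high interferon-response genes, than in the other 3, at 159, 154, 357 and 153 CPM in enterocytes and 108, 99.0, 213 and 119 CPM in dividing cells. Without 2D-1 its difference in enterocytes was -0.027.

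Lower values in the 2D enterocytes were found for Fabp1, Creb3l3 and oxidation genes. Fabp1 was at 3292, 2921, 1789 and 1975 CPM, lower in both 2D libraries (-0.73 ± 0.12, adjusted p = 0.0908 in edgeR). Creb3l3, at 149.5, 117, 73.4 and 90.4 CPM, was also lower in both (-0.72 ± 0.16, adjusted p = 0.178). Acaa2 was at 315, 244, 155 and 239 CPM, lowest in 2D-1 and in 2D-2 just under 0D-2 (-0.52 ± 0.22). Cpt1a, at 88.5, 85.7, 73.2 and 56.9 CPM (-0.42 ± 0.12), and Plin2, at 101, 88.7, 70.3 and 70.9 CPM (-0.44 ± 0.10), had both 2D libraries below both 0D libraries. Slc25a20 showed the same separation at 39.5, 37.7, 31.0 and 27.8 CPM (-0.40 ± 0.11). Cd36 was too scarce for a firm reading, at 5.92, 4.85, 2.77 and 5.11 CPM (-0.61 ± 0.32). Ppara was at 39.0, 31.2, 30.8 and 30.9 CPM (-0.20 ± 0.14, adjusted p = 0.554). The other 19 members had differences between -0.35 and 0.06. Values below 0 for the 11 genes of the shuttle and beta oxidation were not confined to enterocytes. In dividing, stem, goblet and enteroendocrine cells 10 of the 11 were below 0, in Paneth cells 9, and in tuft cells all 10 tested.

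Single libraries decided how many members were called. Without 2D-1, 6 members passed in enterocytes (Apoa1, Apoa4, Apoc2 and Apoc3 higher, Cpt1a and Fabp1 lower), where 1.16% of all genes did. Without 2D-2, 10 passed (Acadl, Apoa4 and Apoc2 higher, Acaa2, Acadvl, Creb3l3, Fabp1, Fabp2, Hadhb and Plin2 lower), where 6.76% of all genes did. Without 0D-2, Apoc2 (higher) and Creb3l3 (lower) passed with 0.483% of all genes, and without 0D-1 0 members passed (0.00863% of all genes). Each omission of a 2D library leaves a single 2D library, so its scatter comes from the 0D pair alone. Both such fits share that pair and are not independent. Over the omissions of each library in turn, Apoc2 ran from 0.91 to 2.54, Apoa4 from 0.65 to 2.44 and Fabp1 from -0.83 to -0.63. Among enterocytes with a Fabp6 UMI, Creb3l3 and Fabp1 passed as lower (0.355% of all genes passed), and Apoa4 turned from 1.80 to -0.48. Such cells were 9.96, 9.95, 25.4 and 15.4% of the enterocytes. They include the cells rich in Fabp6 described below, 22, 18, 68 and 22 in number, which held less Fabp1, Creb3l3 and Apoa4. The part of this mix in the subset's differences was not tested. Of the markers given above, the Paneth sum was higher in both 2D libraries. The ileal sum was highest in 2D-1 but overlapped between the groups. Their part in these differences was not tested. For Apoc2, which Paneth cells carry, Paneth cells held 0.403 to 0.586 UMIs per 1000 UMIs of the Paneth markers. The enterocytes held 42.0, 48.2, 86.3 and 260.4 CPM of Apoc2. Whether that ratio holds outside Paneth cells was not measured, and the part of Paneth RNA in these values was not tested.

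UMIs of Apoa4 and Apoc2 were concentrated in few enterocytes. The 10 enterocytes with the most Apoa4 UMIs held 34.0, 36.6, 77.7 and 74.5% of all Apoa4 UMIs of the enterocytes. A fixed 10 cells is a larger part of the smaller 2D pools (733, 643, 560 and 292 enterocytes), and the median of this share over the 33 members was 9.23, 9.43, 10.1 and 20%. The share of Apob was 11.2% in 0D-1, 11.7% in 2D-1 and 26.7% in 2D-2, nearer to those medians, and that of Apoc3 15.8, 16.2, 51.7 and 67.0%. With its 10 top cells left out Apoa4 stood at 99.5, 86.5, 50.5 and 196 CPM, and the 2 groups overlapped. For Apoc2 the 10 cells with the most of it held 38.9, 49.5, 59.2 and 81.4%, and without them the level was 26.1, 25.0, 35.8 and 49.2 CPM. These cells were picked by the gene itself, so the values are a description only. Splitting the enterocytes at a gate score of 1, a border set after the data were seen, gave 354, 286, 263 and 155 cells at or below it and 379, 357, 297 and 137 above it. Above it Apoa4 was at 238, 196, 448 and 1686 CPM, and at or below it 38.0, 37.9, 11.7 and 28.9 CPM. The order of the groups was thus opposite in the 2 bands, with both 2D libraries higher above the border and lower below it. Apoa1 was at 1027, 1003, 1185 and 2707 CPM above and 183, 204, 67.0 and 142 CPM below, and Apoc3 at 129, 136, 164 and 421 CPM above and 43.0, 55.2, 27.2 and 35.7 CPM below, both with the same reversal. Fabp1, by contrast, was lower in both 2D libraries in both bands, at 4589, 3727, 2746 and 2762 CPM above and 1739.7, 1685, 875 and 1358 CPM below. Creb3l3 was lower in both 2D libraries in both bands too, at 198, 147, 114 and 143 CPM above and 91.0, 70.4, 34.3 and 49.2 CPM below. The 10 top cells of a gene were kept in these bands, and how far the levels above the border rest on them was not tested. No test was made between the bands.

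**Figure D4:**
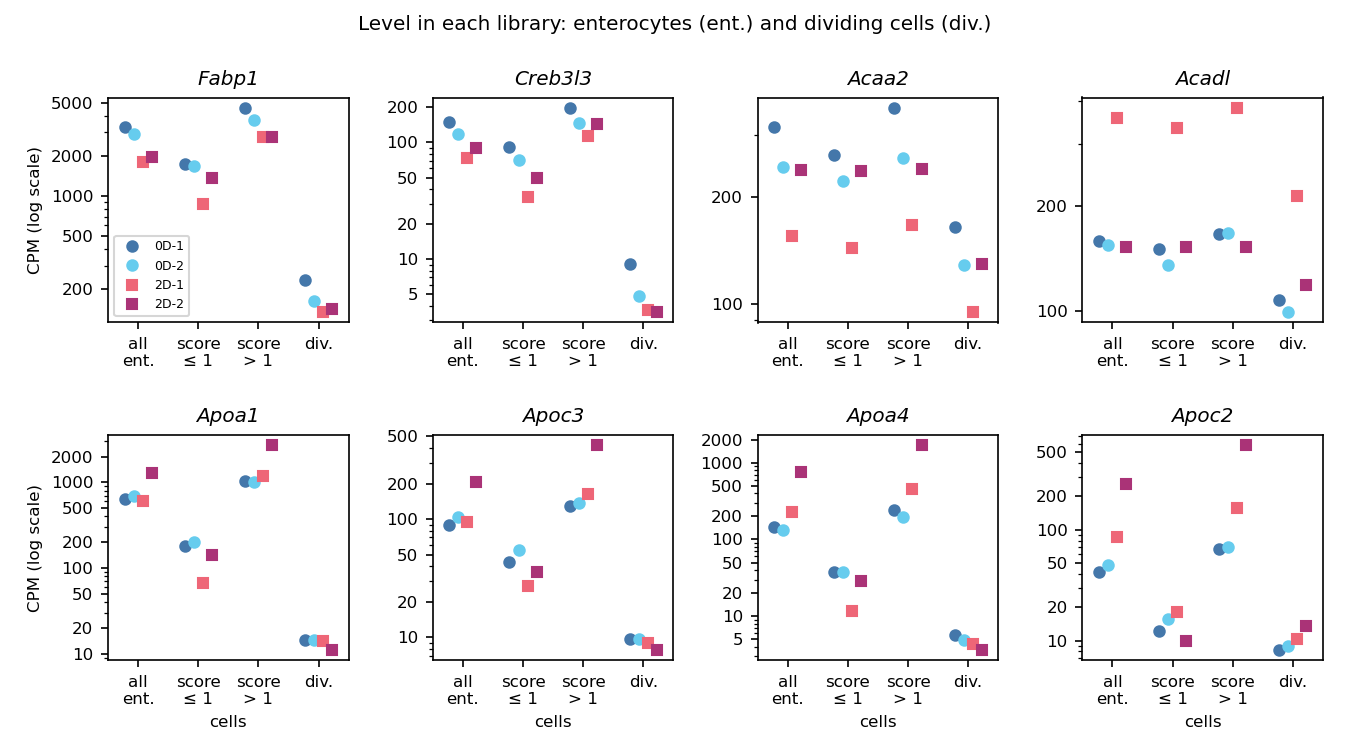
Level in CPM (y axis, log scale) of 8 members in each library (circles 0D, squares 2D) in all enterocytes, in enterocytes with a gate score up to 1 and above 1, and in dividing cells. Apoa4 in 2D-2 reaches 1686 CPM above a score of 1 and 28.9 CPM below it, while Acadl is high in 2D-1 in every group of cells.

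In dividing cells 0 of the 33 members passed either (edgeR, adjusted p; 0% of 12848 genes called; DESeq2 called 0 members). At an unadjusted p under 0.05 there were 4 members, or 12.1%, beside 11.4% of all genes. Creb3l3 had the largest difference, at 9.14, 4.84, 3.68 and 3.51 CPM (-0.97 ± 0.33, adjusted p = 0.410), and both 2D libraries were lower. Fabp1 was at 236, 164, 134 and 142 CPM, with both 2D libraries lower (-0.54 ± 0.18, adjusted p = 0.409). Acadl was again highest in 2D-1 (0.68 ± 0.25). Apoc2 had both 2D libraries higher (0.46 ± 0.17), and Apoa4 both lower, at 5.70, 4.91, 4.28 and 3.65 CPM (-0.41 ± 0.17). Of the other members with the largest differences, Abcg8 (0.45 ± 0.25) was above 0, and Ehhadh (-0.41 ± 0.19), Cpt1a (-0.40 ± 0.19), Acaa2 (-0.39 ± 0.20) and Slc25a20 (-0.38 ± 0.18) were below 0. Ppara differed by 0.035 ± 0.14, with a sign that turned on the library left out. The dividing cells of 2D-2 held the most RNA of goblet and Paneth markers. Goblet markers summed to 14914, 17453, 11862 and 27413 CPM, and Paneth markers to 2489, 3028, 4282 and 6026 CPM. The part of this mix in these differences, and in the interaction below, was not tested. Without 2D-1, 7 members passed (Apoc2 higher, Apob, Cpt1a, Cpt2, Ehhadh, Mttp and Slc25a20 lower), where 8.18% of all genes did. Without 2D-2, 8 passed (Abcg5, Abcg8, Acadl and Npc1l1 higher, Acaa2, Creb3l3, Fabp1 and Fabp2 lower), where 11.4% of all genes did, so that no member was called under both omissions.

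Whether the change differed between enterocytes and dividing cells was tested as an interaction of class and group, and 0 of the 33 members passed (edgeR, adjusted p; 0% of 12237 genes called). 5 members, or 15.2%, had an unadjusted p under 0.05, beside 6.14% of all genes. Apoa4 differed most, by 1.85 ± 0.44 (adjusted p = 0.562), then Apoc2, by 1.24 ± 0.31 (adjusted p = 0.562). The other 3 were Plin2 (-0.29 ± 0.087), Acsl3 (0.42 ± 0.14) and Abcg5 (-0.45 ± 0.19). Creb3l3 gave 0.17 ± 0.21, Ppara -0.25 ± 0.14 and Fabp1 -0.22 ± 0.11. Without a filter on low counts 4 members passed, Apoa1, Apoa4, Apoc2 and Apoc3, each higher in enterocytes (0.569% of all genes passed). Without 2D-1 there were 8 (3.11% of all genes) and without 2D-2 there were 9 (3.66%). Both of these fits share the 0D libraries and leave a single 2D library, so they are not independent. Over the omissions of each library in turn, Apoa4 ran from 0.97 to 2.91, Apoc2 from 0.66 to 1.82 and Fabp1 from -0.39 to -0.046. Apob was called both ways, at 0.55 without 2D-1 and -0.30 without 2D-2, beside 0.11 ± 0.23 with all libraries.

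The other classes and the sum of all cells gave no call either, and are described by counts. Summed over all cells, 30 of the 33 members had values below 0, with a median of -0.30 beside 0.0052 over all genes, and 0 passed (edgeR, adjusted p; 0% of 15454 genes), although 12 had an unadjusted p under 0.05 (36.4%, beside 20.3% of all genes). DESeq2 called 4 there, Apoa4 and Apoc2 higher and Creb3l3 and Fabp1 lower, and 4.95% of all genes. In such a sum, a changed mix of cells and less RNA per enterocyte cannot be told apart. Enterocytes were a smaller share of the 2D libraries. Paneth cells, in which most members had their lowest mean level, numbered 503 and 540 in 0D and 1153 and 1603 in 2D. Without 2D-1, 24 members passed in all cells, 22 of them lower, where 25.6% of all genes passed, and without 2D-2 there were 8, where 12.1% did. In stem, Paneth, goblet, tuft and enteroendocrine cells 0 members passed in edgeR, and 0.0342%, 0.0609%, 0%, 0.0837% and 0.239% of all genes did. At an unadjusted p under 0.05 there were 8, 4, 6, 4 and 5 members in those classes, beside 12.7%, 6.65%, 7.99%, 8.56% and 7.76% of all genes. DESeq2 called 1 member in goblet cells (0.296% of all genes) and 0 in the other 4. Creb3l3 was lower in both 2D goblet pools, at 1.90, 1.88, 1.58 and 0.814 CPM (-0.83 ± 0.31), a low level. Leaving out 1 library gave up to 5 members in stem cells (3.1% of all genes), 4 in Paneth cells (2.13%) and 2 each in tuft (5.16%) and enteroendocrine cells (1.93%). In goblet cells it gave up to 15 of 32 members, beside 42.6% of all genes. Abcg8 in goblet cells was called lower without 2D-1 (-0.39) and higher without 2D-2 (0.32).

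A few enterocytes carried Fabp6, the ileal bile acid binding protein, at 5 or more UMIs per 10000: 22 and 18 cells in the 0D libraries, 68 in 2D-1 and 22 in 2D-2. This border was set after the data were seen, so what follows is a description with no test. These cells held little Fabp1, at 34.5, 154, 71.6 and 66.8 CPM, where the other enterocytes held 3365, 3050.4, 2073 and 2126 CPM. That is a ratio of 97.6, 19.8, 29.0 and 31.8 between the other and the Fabp6-high cells of the same library. Creb3l3 was also scarce, at 10.3, 5.18, 7.10 and 33.4 CPM against 153, 122, 84.3 and 94.9 CPM. Apoa4 was at 37.9, 34.5, 68.0 and 39.5 CPM in Fabp6-high cells against 149.6, 138, 251 and 814 CPM. Fabp2 was lower by less, at 559, 480.2, 622 and 1955 CPM against 1732, 1622, 1346 and 2100.1 CPM, and in 2D-2 the values nearly met. Mttp was at 186, 178, 215 and 255 CPM against 399.6, 416, 407 and 343 CPM, and Plin2 at 20.7, 43.2, 39.6 and 27.3 CPM against 103, 90.8, 75.4 and 74.3 CPM. Sterol transport and Apob did not share this pattern. Npc1l1 was at 107, 77.7, 88.7 and 152 CPM against 89.4, 101, 98.4 and 99.5 CPM, and Apob at 296, 212, 247 and 501 CPM against 292, 282, 254 and 311 CPM, higher in some libraries and lower in others.
Counted over all members, 15 of the 33 were lower in Fabp6-high cells in all 4 libraries (45.5%, beside 16.9% of the 11357 genes) and 1, Abcg5, was higher in all 4 (13.5% of the genes). Besides the 6 named, the lower ones were Apoc2, Apoc3, Cd36, Acsl5, Plin3, Acaa2, Acadvl, Hadha and Ehhadh. Genes outside the set moved too. Nr1h4, the bile acid receptor FXR, was at 131, 147, 122 and 115 CPM in Fabp6-high cells against 41.3, 36.4, 44.2 and 36.0 CPM, and Gata4, a factor of the proximal intestine, at 13.8, 15.5, 14.8 and 15.2 CPM against 44.9, 45.3, 48.0 and 48.2 CPM. The Fabp6-high cells hold few UMIs in all, 290061, 578918, 1691025 and 329354, so that 1 UMI in 0D-1 is worth 3.45 CPM. Library 2D-1 held 68 of the 130 such cells, and enterocytes with no Fabp6 UMI gave 0 called members between 2D and 0D, as all enterocytes did.

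**Figure D5:**
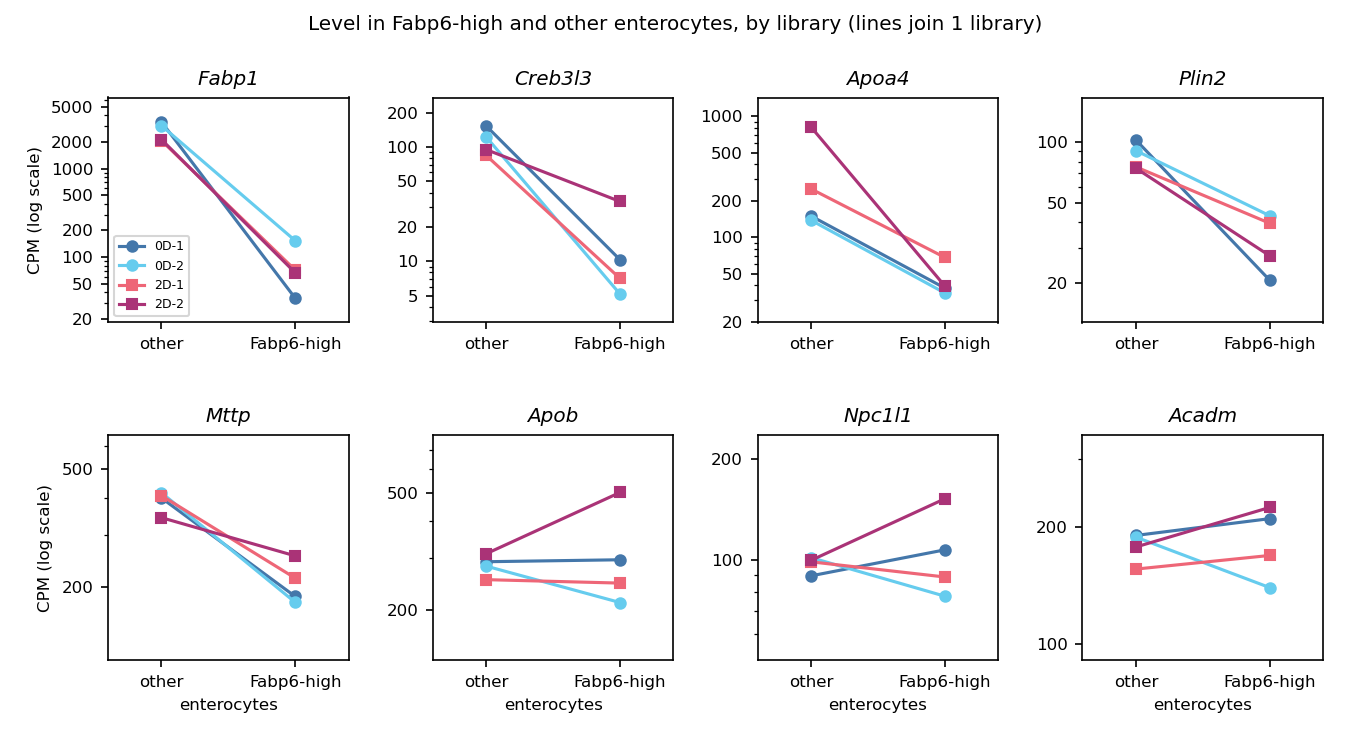
Level in CPM (y axis, log scale) of 8 members in the other enterocytes and in Fabp6-high enterocytes (x axis), with a line for each library. Lines for Fabp1, Creb3l3, Apoa4, Plin2 and Mttp fall in all 4 libraries, and those for Apob, Npc1l1 and Acadm do not.

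Beyond the 33, 65 other genes of lipid handling were read in 5 lists. Between enterocytes and dividing cells 49 of the 60 that could be tested passed, 36 higher and 13 lower. Most genes differed here, with 37.2% of all 11755 genes tested higher and 38% lower. By list, 10 of 14 tested genes of absorption and export were higher and 4 lower, and of 20 tested oxidation and PPAR target genes 17 were higher and 2 lower. Cholesterol synthesis had 1 higher and 4 lower of 10, fatty acid synthesis 2 higher and 3 lower of 7, and the transcription factors 6 higher and 0 lower of 9. The 10 with the smallest p were all higher in enterocytes. Among absorption genes they included Cideb, which helps to lipidate chylomicrons (2.38 ± 0.080), Soat2, the cholesterol acyltransferase (2.21 ± 0.093), Tm6sf2 (2.07 ± 0.068), Agpat2 (1.83 ± 0.075) and Sar1b, of the vesicles that carry chylomicrons out of the reticulum (1.03 ± 0.044). Cideb was at 118, 119, 104 and 104 CPM in enterocytes and 24.3, 24.3, 28.8 and 20.2 CPM in dividing cells. Others were the peroxisomal thiolase Acaa1a (1.37 ± 0.049), the elongase Elovl6 (1.14 ± 0.047) and the factors Hnf4g (1.54 ± 0.067) and Nr1h3, the sterol receptor LXR alpha (1.56 ± 0.070).

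None of these 65 passed between 2D and 0D in enterocytes (edgeR, 62 tested). At an unadjusted p under 0.05 there were 15, beside 14.1% of all genes. Of the tested oxidation and PPAR target genes, 20 of 22 had values below 0 (median -0.24), whereas cholesterol synthesis genes had a median of 0.043. The smallest p belonged to Eci1, an isomerase of unsaturated fatty acid oxidation, at 178, 167, 123 and 134 CPM (-0.44 ± 0.095, adjusted p = 0.176). Me1, the malic enzyme that supplies NADPH, followed at 23.1, 20.5, 14.8 and 14.9 CPM (-0.57 ± 0.13, adjusted p = 0.182). Both were lower in both 2D libraries. Ppargc1a, a coactivator of oxidative genes, was at 44.2, 48.5, 62.1 and 58.4 CPM (0.37 ± 0.10, adjusted p = 0.213), higher in both 2D libraries. In dividing cells none passed either (60 tested), and 7 had an unadjusted p under 0.05, beside 11.4% of all genes. The smallest p belonged to Eci1 (-0.32 ± 0.072), Hadh (-0.29 ± 0.081) and Ppargc1a (0.73 ± 0.21).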

How the data were processed

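Single-cell RNA sequencing of crypt-fraction cells from mouse small intestine gave 4 libraries, 2 per group. The deposited values are UMI counts per gene and cell barcode. They come from Cell Ranger 2.1.1 with build mm10 per the submitters' processing notes, while the file headers name cellranger 7.0.0. The annotation and read assignment are not given in sources used here. Kept cells had at least 500 genes and at most 20% mitochondrial UMIs. Counts per cell were scaled to 10000, log-transformed and standardised per gene (values limited to ±10). A cell joined the class whose marker panel had the highest mean, if that mean exceeded 0.5 and at least 3 markers had a UMI. Doublets were scored with Scrublet and kept, and removal was an alternative (scores above 0.25).

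Counts were summed per class and library and tested with edgeR 4.0.16 (R 4.3.3) on the counts as deposited: low counts removed by filterByExpr, libraries scaled by TMM, a quasi-likelihood test, and p-values adjusted over all genes tested (Benjamini-Hochberg, threshold 0.05). The 2D minus 0D test carried no block, comparisons of classes carried the library, and the share of enterocytes was tested by exact permutation. The fit was also run on simulated enterocyte counts with equal scatter in both groups. In the real enterocytes the 2D libraries differed more than the 0D libraries (root mean square log2 difference 0.481 against 0.291). That run therefore does not cover unequal scatter. CPM are class sums per 1000000 UMIs. Nothing in the labels says that equal replicate numbers pair the libraries, so the main test did not pair them. Deviations of same-numbered libraries correlated at -0.064 to 0.117 over the classes. With so few libraries this cannot show whether a pairing exists. Alternatives were DESeq2 1.42.0, RLE size factors, no filter, a replicate block, leaving out each library, 10% mitochondrial UMIs, stricter gates (0.75), Fabp6 splits and Leiden clusters. Coordinates are from GENCODE on mm10, promoters from RefSeq.

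Members, lists and tests were chosen with earlier results of these data known. Library values are given for every member past the threshold, the 10 with the largest difference and the regulators Creb3l3 and Ppara. In classes other than enterocytes and dividing cells, where no member passed between 2D and 0D, the text gives counts, a narrowing made after the values were seen. Of other pathway genes, the 10 (or, if none passed, 3) with the smallest p are named, except 1 that is not reported here. Each SE of a log2 difference comes from the quasi-likelihood fit and takes in scatter between libraries.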

Additional observations from a re-analysis of the deposited data

How the results depend on the processing

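With 2 libraries per group, the number of members called between 2D and 0D moved with single libraries, while the comparison of enterocytes with dividing cells did not (33 of 33 members in all 4 omissions). Leaving out each library in turn gave 0 to 24 members in all cells, 0 to 10 in enterocytes, 0 to 8 in dividing cells, 0 to 5 in stem, 0 to 4 in Paneth, 0 to 15 in goblet, and 0 to 2 in tuft and in enteroendocrine cells, and 0 to 9 for the interaction, against 0 with all libraries. DESeq2 called 4 members in all cells, 2 in enterocytes and 1 in goblet cells. Without a filter on low counts 7 were called in stem, 2 in Paneth, 2 in goblet and 1 in tuft cells and 4 for the interaction. A limit of 10% mitochondrial UMIs gave 2 in enterocytes and 1 in tuft cells, and enterocytes with a Fabp6 UMI gave 2. With the replicate number as a block, 3 members were called in Paneth cells, 1 in goblet cells and 0 in the other classes, and 0, 57, 75, 58, 189, 27, 43 and 214 genes in all, enterocyte, dividing, stem, Paneth, goblet, tuft and enteroendocrine cells, against 0, 14, 0, 4, 7, 0, 8 and 28 without it. DESeq2 called 765 genes in all cells, 88 in enterocytes, 97 in dividing, 70 in stem, 21 in Paneth, 37 in goblet and 13 in tuft cells. Without a filter, 0 genes were called in enterocytes, 42 in dividing, 571 in stem, 125 in Paneth, 327 in goblet, 163 in tuft and 266 in enteroendocrine cells. Leaving out 1 library gave up to 4045, 790, 1494, 448, 242, 5484, 505 and 284 genes in the same order of classes. Among the values printed above, these changed direction. In enterocytes with a Fabp6 UMI, Apoa4 was at -0.48 and Apoc3 at -0.57. Over the omissions of 1 library, in enterocytes Acadl ran from -0.027 to 1.16, Apoc3 from -0.074 to 1.09 and Apoa1 from -0.15 to 0.94. In the same omissions Ppara in dividing cells ran from -0.093 to 0.17, Acsl3 between enterocytes and Paneth cells from -0.064 to 0.054, Creb3l3 in the interaction from -0.14 to 0.42, Apob in the interaction from -0.30 to 0.55 and Abcg8 in goblet cells from -0.39 to 0.32, the last 2 past the threshold in both directions. Abcg8 in goblet cells was at -0.0080 without a filter and -0.032 with the replicate block, beside 0.0035 in the reported fit. The median over the members in enterocytes was -0.07 without 2D-1 and -0.11 in cells with no Fabp6 UMI, and in all cells -0.15 without 2D-2. The share of enterocytes stayed lower in 2D, by 1.37 to 5.69 percentage points over the omissions, but at 10% mitochondrial UMIs the groups overlapped, with 8.70% in 2D-1 and 8.53% in 0D-2. Where no value or construction above shows it, the cause was not tested.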
